A study of Saccharomyces cerevisiae with 7 samples.

Results

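The genes described here encode covalently bound cell wall proteins of Saccharomyces cerevisiae and the enzymes that make, cut, branch and join its wall glucans. There were 38 such genes, of 5449 S. cerevisiae genes with a probeset in the array annotation. A probeset is the group of short probes that reads a given transcript. The 38 were chosen by symbol, without a cutoff on measured values, but with earlier results of these data known. Each of the 38 was measured by a single probeset, and none of these is labelled as sharing probes with another transcript. All cultures were of the cir+ strain NRRL Y-12632, which ATCC lists as 18824, were started from the same culture in control media and were grown for 24 h at 30 °C with shaking. The 4 mine drainage cultures grew in YPD, a rich medium of yeast extract, peptone and glucose, made with water leached from the tailings of an asbestos mine, which gave a higher pH and much more magnesium than in control media. The 3 control cultures grew in YPD made with deionized water. A culture gave an array each, and the cultures were separate. With a single strain, a single time and a laboratory leachate in rich medium, the comparison holds for those conditions.

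The yeast wall is a scaffold of β-1,3-glucan chains, to which β-1,6-glucan, a little chitin and an outer coat of mannoproteins are attached. Most wall mannoproteins reach β-1,6-glucan through the remnant of a glycosylphosphatidylinositol (GPI) anchor, while the PIR proteins, named for their internal repeats, are bound directly to β-1,3-glucan. Glucan is spun out by a synthase in the plasma membrane and then lengthened, branched, trimmed and crosslinked outside the cell by secreted enzymes, and wall genes are known to respond to growth phase, medium and wall stress.

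The values are log2 signals from the Robust Multichip Average (RMA), which the authors ran over all arrays together, and differences are mine drainage minus control. The test was limma's moderated test, two-sided, with Benjamini-Hochberg adjustment over 5498 S. cerevisiae probesets, and a gene is said to have risen or fallen where the adjusted p was under 0.05. The array also carries probesets for fission yeast genes, which had a 95th percentile of 1.52, and 37 of the 38 wall genes lay above it on all 7 arrays. The exception was KNH1. Actin (ACT1) differed by 0.04 (adjusted p = 0.727 from limma). The mean difference between 3′ and 5′ probesets over 8 yeast control transcripts, a sign of RNA integrity and priming, ran from 0.495 to 0.866 on mine drainage arrays and from 0.792 to 1.14 on control arrays (exact permutation test over 35 splits, two-sided, p = 0.114). Hybridization controls added from outside averaged 9.71 ± 0.22 in mine drainage and 9.29 ± 0.18 in control (SD, exact permutation p = 0.0857), and rRNA probesets averaged 11.96 ± 0.10 in mine drainage and 11.54 ± 0.12 in control (exact p = 0.0286, the smallest that 35 splits allow). The part of both in the results was not tested. The number of arrays limits the precision of every value below.

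More wall genes rose than fell in mine drainage media. Of the 38, 10 rose (26.3%) and 2 fell (5.26%), where 14.5% of all probesets rose, 17.1% fell and 31.6% did either. PIR3, CWP1, TIP1, GAS1, GAS5, SCW4, EXG1, EXG2, SKN1 and PST1 rose, and GSC2 and YPS1 fell. The median difference over the 38 genes was 0.14, beside -0.03 over all probesets, and 25 genes had a positive difference. The groups did not overlap for 15 genes, with mine drainage wholly above control in 11 and wholly below in 4, where 17.7% and 20.5% of all probesets lay so. Of the 12 genes called, 7 had a fold change of at least 1.5, and each of these was a rise (13.1% of all probesets passed both limits). A further quantile normalization was made over the 5498 S. cerevisiae probesets alone, where the authors' covered all probesets of the array. After it 7 rose and 3 fell, with TIP1, EXG1 and PST1 missing the threshold and CRH1 passing it. Of all 5498 probesets 831 then rose and 840 fell. With the 3′ to 5′ difference of each array as a covariate 4 rose and 2 fell. The genes that then missed the threshold were TIP1, GSC2, GAS1, SCW4, EXG1, EXG2 and PST1. Of all probesets 228 rose and 283 fell with that covariate. Because each array holds RNA from a whole culture, fewer cells in a given growth state and less RNA per cell cannot be told apart.

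**Figure D1:**
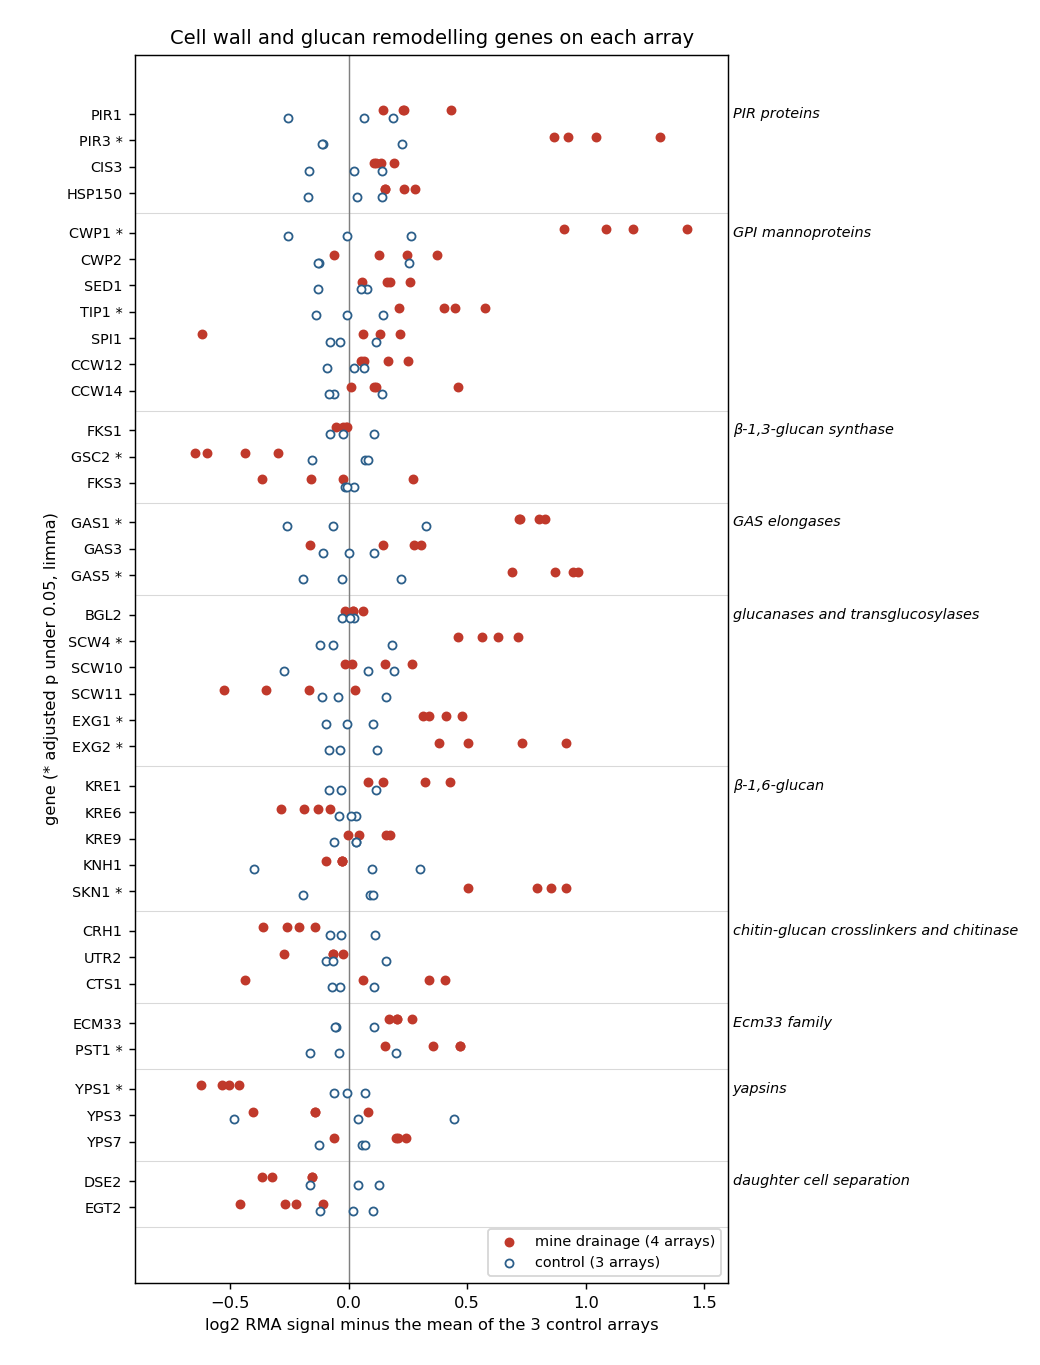
Log2 RMA signal of each of the 38 genes on each array, minus the mean of the 3 control arrays for that gene, with 4 mine drainage arrays (filled) above 3 control arrays (open) and genes grouped by role. Asterisks mark the 12 genes with an adjusted p under 0.05 from limma, and CWP1 and PIR3 stand farthest to the right, with differences of 1.16 and 1.04.

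Of the 4 PIR proteins among the 38 genes, PIR3 alone passed the test (25%, where 31.6% of all probesets passed it). Its log2 signal was 10.39, 9.94, 10.12 and 10.00 on the mine drainage arrays, against 9.30, 8.97 and 8.96 on the control arrays. The groups were separated by a gap wider than the range within either, and mine drainage replicate 1 was the highest. The difference was 1.04 (standard error 0.14, 2.05-fold, adjusted p = 0.00211 from limma). PIR1, which lies next to PIR3 on the chromosome with no annotated gene between, ran from 10.03 to 10.32 in mine drainage and from 9.63 to 10.07 in control, and its difference of 0.26 did not pass the test (95% interval -0.02 to 0.54, adjusted p = 0.137 from limma). HSP150, a heat shock induced PIR protein, differed by 0.21 and CIS3, a family member with a single repeat, by 0.14, with adjusted p of 0.148 and 0.307 from limma. For HSP150 the groups did not overlap, though narrowly, with 11.15 as the lowest mine drainage value and 11.13 as the highest control value. PIR5, a further PIR protein outside the 38, differed by -0.13 (adjusted p = 0.543 from limma).

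Of the 7 GPI mannoproteins 2 rose (28.6%, beside 14.5% of all probesets), and the change of CWP1 was the largest of the 38 genes. CWP1 encodes a mannoprotein found at birth scars, the marks that daughter cells carry where they parted from the mother. Its log2 signal was 9.14, 8.85, 9.03 and 9.37 in mine drainage and 7.69, 7.93 and 8.20 in control. The gap between the groups was wider than the range within either, and the spread was alike in both (SD 0.22 and 0.26). CWP1 thus rose by 1.16 (standard error 0.15, 2.23-fold, adjusted p = 0.00227 from limma). TIP1, a major wall mannoprotein induced by temperature shock, had 10.55, 10.78, 10.91 and 10.74 in mine drainage and 10.48, 10.20 and 10.32 in control. The gap between the groups was small here, because mine drainage replicate 1 and control replicate 1 nearly met. TIP1 rose by 0.41 (standard error 0.11, adjusted p = 0.0247 from limma), a call lost in 8 of 16 alternatives. These include leaving out mine drainage replicate 3 or 4 or control replicate 2 or 3, with adjusted p of 0.0647, 0.0592, 0.117 and 0.0773 from limma.

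The other mannoproteins did not pass the test. CWP2, the abundant small relative of CWP1 that lies beside it on the chromosome, differed by 0.17 (95% interval -0.13 to 0.48). Differences were 0.16 for SED1, a structural protein of stationary phase walls, 0.13 for CCW12, an abundant mannoprotein needed for normal wall strength, and 0.17 for CCW14, a protein of the inner wall layer. SPI1, a stationary phase protein related to SED1, had a difference of -0.05 and the widest spread of the group. On mine drainage replicate 1 SPI1 read 10.34, while the other mine drainage arrays lay between 11.02 and 11.17 and the control arrays between 10.88 and 11.07. Without that array its difference was 0.14 (adjusted p = 0.303 from limma).

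Of the 3 catalytic subunits of β-1,3-glucan synthase, only GSC2 passed the test (33.3%, where 31.6% of all probesets passed it and 17.1% fell). FKS1, the subunit used in vegetative growth, read between 10.61 and 10.66 in mine drainage and between 10.58 and 10.77 in control. Its difference was -0.02, with a 95% interval of -0.22 to 0.17. GSC2, the alternative subunit that is known to be induced by calcineurin signalling, glucose limitation and wall stress, had 8.57, 8.52, 8.73 and 8.87 in mine drainage, against 9.01, 9.24 and 9.25 in control. All mine drainage arrays were below all control arrays, and control replicate 1 was the nearest to them. GSC2 fell by 0.49 (1.41-fold, standard error 0.12, adjusted p = 0.0123 from limma). The call was lost without control replicate 2 or control replicate 3 (adjusted p = 0.0653 and 0.0553), and the methods' one-way ANOVA gave an adjusted p of 0.0519. FKS3, which acts in the spore wall, differed by -0.07, with mine drainage arrays on both sides of the controls.

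Products of the GAS family lengthen β-1,3-glucan chains by joining them end to end. Of the 3 genes here from that family GAS1 and GAS5 rose (66.7%, beside 14.5% of all probesets). GAS1, the main elongase of growing cells, had 10.06, 10.06, 10.14 and 10.17 in mine drainage and 9.67, 9.27 and 9.08 in control. The mine drainage arrays lay within a narrow band (SD 0.055) while the controls were spread over a far wider one (SD 0.30). The difference was 0.77 (standard error 0.13, 1.70-fold, adjusted p = 0.00455 from limma). GAS5, a second elongase of growing cells, had 8.95, 8.67, 8.93 and 8.85 in mine drainage, against 8.20, 7.96 and 7.79 in control, again with no overlap. It rose by 0.87 (standard error 0.12, 1.83-fold, adjusted p = 0.00254 from limma). In both genes control replicate 1 was the control nearest to mine drainage. GAS3, a family member of low known activity, differed by 0.14 and its groups overlapped (adjusted p = 0.422 from limma). The family members outside the 38, GAS2 and GAS4, which act in the spore wall, differed by 0.17 and -0.53, with adjusted p of 0.572 and 0.114 from limma, and were not called. GAS1 missed the threshold in 1 of 16 alternatives, with the 3′ to 5′ covariate (0.59, adjusted p = 0.0574).

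The glucanases and transglucosylases that trim and rejoin glucan in the wall gave 3 rises among 6 genes and no fall. Of all probesets 14.5% rose and 17.1% fell. SCW4, a wall protein related to glucanases, had 10.10, 10.03, 10.18 and 9.93 in mine drainage and 9.65, 9.40 and 9.35 in control. It rose by 0.59 (standard error 0.11, 1.51-fold, adjusted p = 0.0055 from limma), and its groups did not overlap. EXG1, the major exo-β-1,3-glucanase, had 10.33, 10.17, 10.27 and 10.20 in mine drainage, against 9.96, 9.85 and 9.76 in control. Its groups lay closer together but stayed apart, and the rise was 0.39 (standard error 0.09, adjusted p = 0.0146 from limma). EXG2, a minor exo-glucanase that is GPI-anchored, had 7.91, 7.68, 8.10 and 7.56 in mine drainage and 7.30, 7.10 and 7.15 in control. Here the mine drainage arrays were the more spread, and EXG2 rose by 0.63 (standard error 0.14, 1.55-fold, adjusted p = 0.00892 from limma).

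The remaining 3 of that group did not pass the test. BGL2, the main endo-β-1,3-glucanase of the wall, was among the steadiest of the 38 genes, between 10.89 and 10.97 in mine drainage and between 10.88 and 10.93 in control (difference 0.02, or -0.07 when arrays were quantile normalized once more). SCW10, the close relative of SCW4, differed by 0.11. SCW11, a daughter cell protein that acts in separation, had a difference of -0.25 (95% interval -0.56 to 0.06). EXG1 missed the threshold without control replicate 2 or control replicate 3 (adjusted p = 0.0667 and 0.0627), and EXG2 did so with the methods' one-way ANOVA (adjusted p = 0.0537).

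Among genes of β-1,6-glucan assembly, SKN1 alone rose (20%, beside 14.5% of all probesets) and KRE6 did not pass the test. Both encode related membrane proteins of the secretory pathway that act in β-1,6-glucan assembly. SKN1 had 6.73, 6.39, 6.80 and 6.68 in mine drainage and 5.69, 5.97 and 5.98 in control. The groups were well apart, with mine drainage replicate 2 the nearest to the controls, and SKN1 rose by 0.77 (standard error 0.13, 1.70-fold, adjusted p = 0.00396 from limma). KRE6 ran from 8.74 to 8.95 in mine drainage and from 8.98 to 9.05 in control. Its groups did not overlap, but the difference of -0.17 did not pass the test (adjusted p = 0.177 from limma). KRE1, a GPI protein that also serves as the receptor of a killer toxin, differed by 0.25, and KRE9, a secreted protein of the same pathway, by 0.09. KNH1, the homologue of KRE9, was near the fission yeast level on every array, between 1.56 and 1.63 in mine drainage and between 1.26 and 1.96 in control, so its difference of -0.05 says little.

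None of the 3 genes for chitin attachment and breakdown passed the test, where 31.6% of all probesets did. CRH1 and UTR2, whose products join chitin to glucan, differed by -0.24 and -0.11. For CRH1 every mine drainage array, from 9.84 to 10.06, was below every control array, from 10.13 to 10.32, and the adjusted p was 0.0831 (limma). CRH1 did pass after a further quantile normalization (-0.37, adjusted p = 0.0136). CTS1, the chitinase that parts mother and daughter, had a wide spread in mine drainage, from 6.20 to 7.04, around the control values of 6.56 to 6.74. The genes of the daughter side of the septum, DSE2 and EGT2, differed by -0.25 and -0.26 (adjusted p = 0.102 and 0.0923 from limma), and in both control replicate 3 was the only control that overlapped mine drainage. CRH1, DSE2, EGT2 and ECM33 were the 4 genes with an unadjusted p under 0.05 that missed the threshold after adjustment.

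PST1, a GPI protein known to be induced by wall damage, had 9.64, 9.53, 9.64 and 9.33 in mine drainage, against 9.37, 9.13 and 9.01 in control. Mine drainage replicate 4 lay below control replicate 1, so the groups overlapped, and PST1 was the only such gene among the 12 called. It rose by 0.36 (standard error 0.12, adjusted p = 0.0465 from limma), and the call was lost in 9 of 16 alternatives. Those include leaving out control replicate 2 or 3 (adjusted p = 0.149 and 0.169 from limma) or mine drainage replicate 1, 2 or 3 (adjusted p between 0.0682 and 0.111). ECM33, its relative and a GPI protein needed for wall integrity, read from 10.57 to 10.67 in mine drainage and from 10.34 to 10.51 in control, without overlap. The ECM33 difference of 0.21 did not pass (adjusted p = 0.0977 from limma).

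The yapsins are GPI-anchored aspartyl proteases that process proteins at the cell surface. YPS1 had 9.42, 9.31, 9.39 and 9.47 in mine drainage and 10.00, 9.87 and 9.92 in control. Both groups were tight (SD 0.067 in each) and far apart by comparison, and YPS1 fell by 0.53 (1.44-fold, standard error 0.09, adjusted p = 0.00407 from limma). YPS3, its chromosomal neighbour, had a difference of -0.15, with control arrays spread from 7.81 to 8.73 around mine drainage arrays at 7.89 to 8.37. YPS3 was the only gene not called whose 95% interval, -0.60 to 0.30, reached a 1.5-fold change. With the 3′ to 5′ covariate its difference was -0.62 (adjusted p = 0.0418). YPS7 differed by 0.15 (adjusted p = 0.315 from limma).

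For 25 of the 26 genes not called, the 95% interval from limma thus lay within a 1.5-fold change in either direction. KNH1 is among the 25, and near the fission yeast level its interval says little. With array weights 7 of the 26 passed the threshold. Of the 12 called, CWP1, PIR3, GAS5, SKN1 and YPS1 stayed past the threshold under all 16 alternatives, and no called gene turned in sign under any of them. Control replicate 1 was the control array nearest to mine drainage for 9 of the 12. Over the 12, its median position was 0.343 on a scale where 0 is the mean of the other controls and 1 the mine drainage mean. Without it the same 12 genes were called, and the median difference over the 38 genes was 0.20, beside 0.14 with all arrays. That median was 0.11 without control replicate 3, 0.09 with the 3′ to 5′ covariate and 0.07 after a further quantile normalization. Across the 38 genes the difference had a Spearman correlation of -0.28 with coding length, a description over genes that share the same arrays, beside -0.15 over all probesets. After subtraction of a linear trend with coding length, fitted over all probesets, the same 12 genes were called. That trend had a slope of -0.046 per log2 of length, beside -0.105 over the 38 genes, so the relation among the 38 was not fully removed.

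**Figure D2:**
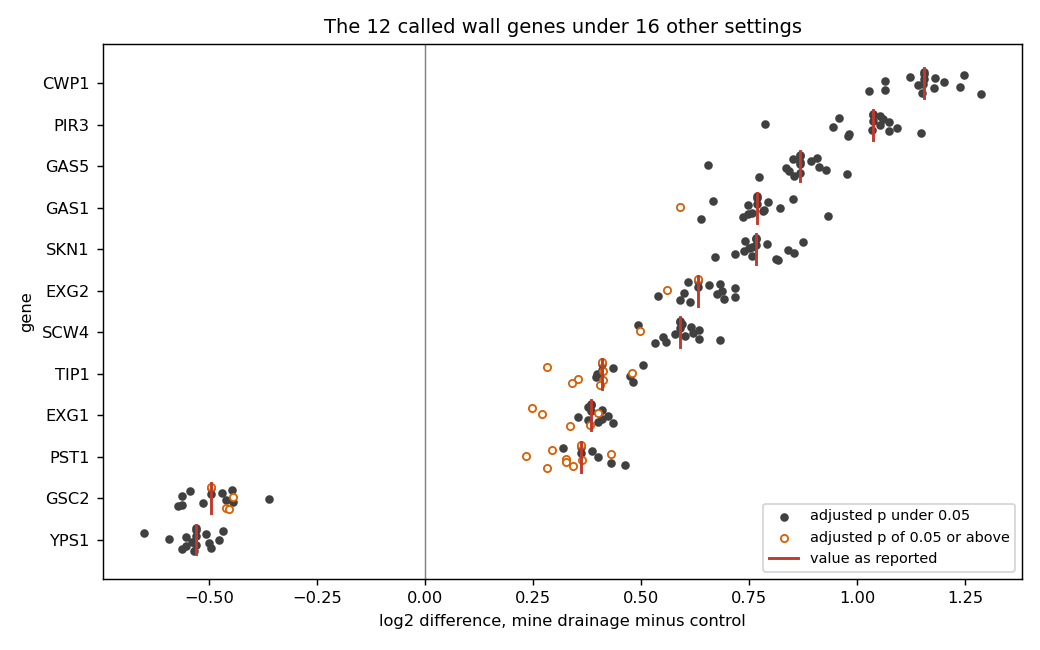
Log2 difference, mine drainage minus control, of the 12 called genes under 16 alternative settings, with the reported value as a line, filled points for an adjusted p under 0.05 and open points otherwise. The 5 genes without open points are CWP1, PIR3, GAS5, SKN1 and YPS1, and all points of a gene lie on the same side of 0.

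To compare relatives directly, 10 family pairs were tested by the difference between their log2 signals within each array. The exact permutation test over 35 splits cannot give a p below 0.0286. It gave that p for PIR1 minus PIR3 (-0.78), SCW4 minus SCW10 (0.49) and KRE6 minus SKN1 (-0.94). In each of these 3 pairs every mine drainage array lay on the same side of every control array. After adjustment over the 10 pairs their p was 0.0952, so no pair passed. Any pair could pass only if most of the 10 reached the smallest p, so this outcome says little about the pairs. CWP1 minus CWP2 (0.98, exact p = 0.0571) did not overlap between the groups either, but varied more within them (SD 0.36 in mine drainage and 0.46 in control). FKS1 minus GSC2 differed by 0.47 with overlap (exact p = 0.0857). CIS3 minus HSP150 did not overlap between the groups either, with a difference of only -0.07 (exact p = 0.0571), and for the 4 other pairs it lay between -0.14 and 0.21 with exact p between 0.229 and 0.543.

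**Figure D3:**
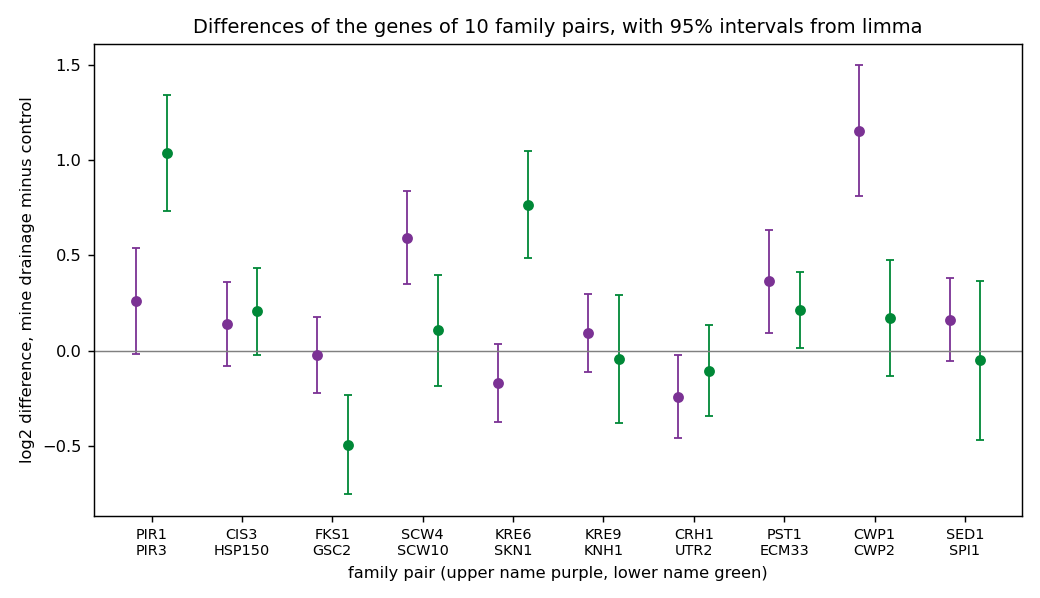
Log2 difference, mine drainage minus control, of both genes of 10 family pairs, with 95% intervals from limma for each gene. PIR3, SCW4, SKN1 and CWP1 lie at 1.04, 0.59, 0.77 and 1.16, above their relatives PIR1, SCW10, KRE6 and CWP2 at 0.26, 0.11, -0.17 and 0.17.

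Genes that work with the 38 were taken from 5 further lists. Of 63 measured genes in these lists 13 rose (20.6%) and 12 fell (19%), beside 14.5% and 17.1% of all probesets, and the median difference of -0.03 was that of all probesets. In the assembly of glucan, 2 of 14 genes fell (14.3%, below the 17.1% of all probesets) and none rose. They were BIG1, an endoplasmic reticulum protein needed for β-1,6-glucan (-0.38), and CWH41, the glucosidase that starts trimming of N-glycans (-0.36). Among 11 other secreted wall proteins 4 rose (36.4%) and 2 fell (18.2%). The rises were those of the SUN family of wall proteins, NCA3 (0.89), SUN4 (0.78), UTH1 (0.46) and SIM1 (0.38), UTH1 and SIM1 being named after their values were seen. ZPS1, a wall protein induced by zinc lack and alkaline pH, had a difference of -0.79 and PRY3, a wall protein related to plant pathogenesis proteins, of -0.63 (adjusted p = 0.0028 and 0.0102 from limma). With the methods' one-way ANOVA, BIG1, UTH1, SIM1 and PRY3 missed the threshold (adjusted p from 0.0578 to 0.0794). The other alternatives are reported gene by gene for the 38 only.

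Of 6 protein O-mannosyltransferases, which add the first mannose to wall proteins such as the PIR family, PMT2 (0.61) and PMT1 (0.37) rose and none fell. These rises were 33.3% of that list, where 14.5% of all probesets rose and 17.1% fell. No flocculin passed the test among 3 measured, where 31.6% of all probesets did. FLO1 and FLO10 were below the fission yeast level on all arrays. In GPI anchor assembly and remodelling 7 of 29 rose (24.1%) and 8 fell (27.6%), shares that for all probesets were 14.5% and 17.1%. The largest changes there were those of GPI18, a mannosyltransferase (-0.65), BST1, which removes an acyl chain from the anchor (0.64), DFG5, which acts in transfer of GPI proteins to the wall (-0.56), and GPI19, of the first step (-0.55). With the methods' one-way ANOVA, PMT1 and GPI19 missed the threshold (adjusted p = 0.0656 and 0.0509).

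**Figure D4:**
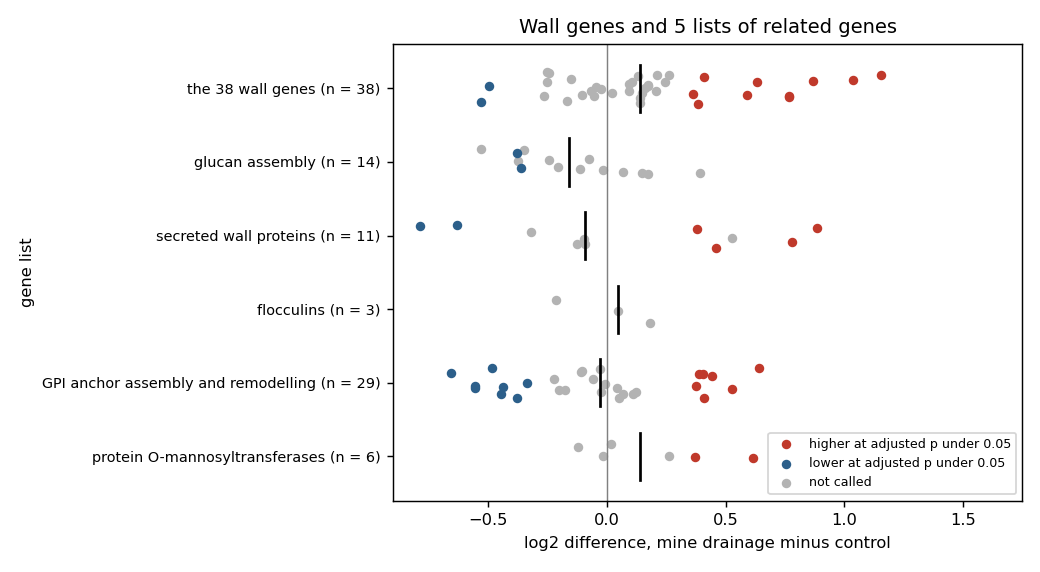
Log2 difference, mine drainage minus control, of each gene in the 38 wall genes and in 5 related lists, coloured by call at an adjusted p under 0.05 from limma, with the median of each list as a bar. The median is 0.14 for the wall genes and -0.16 for glucan assembly, and the GPI anchor list holds 7 rises and 8 falls.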

How the data were processed

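RNA from 7 cultures was amplified with a whole-transcriptome kit and hybridized to Affymetrix Yeast Genome 2.0 arrays. As deposited, values were on a log2 scale, and the authors made them from the scanner files with RMA in Partek (background correction, quantile normalization over all probesets, summarization). Quantile normalization hides a change shared by most transcripts. Groups and replicate numbers came from the titles. Genes came from the platform annotation, updated by gene ID through an R64 table. Of 10928 probesets 5498 named S. cerevisiae genes and were tested with limma 3.58.1 in R 4.3.3, default settings, 5 residual degrees of freedom, no filter. For a gene, the probeset with the highest mean was used, leaving out identifiers of shared probes. Simulated data with known changes were used to test the procedure.

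Members, lists, pairs and alternatives were chosen with earlier results of these data known. All 38 genes are accounted for, and per-array values are given for those called. From each further list up to 4 called genes with the largest differences are named. Others named from these lists were chosen after their values were seen (PIR5, GAS2, GAS4, SIM1, UTH1, FLO1, FLO10 and further genes of the GPI list). Of 66 genes in those lists 63 had a usable probeset, and a further list is not reported here. Alternatives were array weights, the methods' one-way ANOVA, a further quantile normalization, a robust prior with a trend, a median shift, a filter on dim probesets, the replicate number as a block, the 3′ to 5′ covariate, a coding length correction and leaving out each array. The further quantile normalization used the S. cerevisiae probesets alone. For genes of the further lists, only the ANOVA is reported among these. Arrays have no read depth. Sequences and coordinates are not given here. Figures were drawn with matplotlib 3.10.9.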

Additional observations from a re-analysis of the deposited data

Results flagged for a closer look

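Among the 38 genes, the mine drainage arrays of 3 held a value far from the other 3 arrays by Dixon's criterion for 4 samples, which chance meets in about 1 in 20 groups. All 3 values were low and on mine drainage replicate 2. UTR2 read 9.08 there, against 9.29 to 9.33 on the other mine drainage arrays, and YPS7 read 7.90, against 8.16 to 8.20. KNH1 read 1.56 there and 1.63 on each of the others, a gap of no weight near the fission yeast level. None of these genes was called.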

How the results depend on the processing

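The count of 10 wall genes higher and 2 lower became 7 and 1 with the methods' one-way ANOVA (TIP1, GSC2, EXG2 and PST1 lost), 13 and 6 with array weights, 7 and 3 after a further quantile normalization, 11 and 3 with a trend and robust prior, and 4 and 2 with the 3′ to 5′ covariate. It was unchanged after the median shift, the filter on dim probesets and the length correction, with the same 12 genes called in each. Leaving out an array gave 7 to 10 higher and 1 to 2 lower. PST1 was lost without mine drainage replicate 1, 2 or 3, TIP1 without mine drainage replicate 3 or 4, and TIP1, GSC2, EXG1 and PST1 without control replicate 2 or 3 (7 higher, 1 lower). Over all probesets 1737 calls became 730 with the ANOVA, 2835 with array weights, 511 with the covariate and 688 to 1812 when an array was left out. The causes were not tested.

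The titles do not say whether equal replicate numbers mark pairs, and the main fit did not treat them so. Deviations of arrays with the same number correlated at -0.07, -0.18 and 0.08, and 2 of 6 arrays correlated best with their own number. So few arrays cannot decide the question, and no test was made. With the number as a block 7 wall genes were higher and 2 lower (TIP1, EXG1 and PST1 lost), and 929 probesets were called.

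Sign turned in 8 of the genes not called, never past the threshold. SPI1 was 0.061 with array weights, 0.32 with the covariate and -0.14 to 0.14 when an array was left out. BGL2 was -0.0082 with array weights and -0.070 after quantile normalization, where FKS3 was 0.047, SCW10 -0.018, KNH1 0.14 and the pair KRE9 minus KNH1 -0.085. FKS1 was 0.00079 after the median shift, 0.11 after the length correction and -0.064 to 0.029 when an array was left out. FKS3 was 0.030 with the block, 0.062 after the length correction and -0.18 to 0.030 when an array was left out. SCW10 and CTS1 were -0.16 and -0.22 with the covariate, and -0.030 to 0.20 and -0.012 to 0.27 when an array was left out. Over the same removals KNH1 ran from -0.25 to 0.10 and YPS3 from -0.39 to 0.070. No gene had a second probeset to try. The number of family pairs at an adjusted p under 0.05 was 0 of 10 here and after quantile normalization. The smallest p that the exact test allows left little room for any other count.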

Other observations

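The GPI anchor list had 7 rises and 8 falls. Part of it was also grouped by enzyme, a grouping chosen after the values were seen and given as a description without a test. Of the 6 subunits of the N-acetylglucosamine transferase that begins the anchor, 4 fell and none rose. They were GPI19 (-0.55), GPI1 (-0.45), GPI15 (-0.44) and ERI1 (-0.38), while GPI2 and SPT14, the catalytic subunit, differed by -0.11 and 0.05. Of the 5 subunits of the transamidase that attaches the finished anchor to proteins, GPI8 (0.41) and GPI16 (0.39) rose and none fell. Of 4 genes that remodel the anchor after attachment, BST1 (0.64), PER1 (0.53) and CWH43 (0.38) rose and none fell. The rest of the list is outside these groups and went both ways. There MCD4 (0.40) and GPI11 (0.44) rose, while GPI18 (-0.65), DFG5 (-0.56), ARV1 (-0.49) and LAS21 (-0.34) fell. With the methods' one-way ANOVA, GPI19, ERI1, GPI15, CWH43, MCD4, GPI11 and ARV1 missed the threshold (adjusted p from 0.0509 to 0.112). Over all probesets 14.5% rose and 17.1% fell.

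Among the 38 wall genes there were 4 pairs of chromosomal neighbours of which a single member was called. PIR3, CWP1, YPS1 and GAS1 were called and PIR1, CWP2, YPS3 and FKS3, each next to the called gene with no annotated gene between, were not. In the other adjacent pairs, HSP150 with CIS3 and SCW10 with FKS3, neither gene was called. As 12 of all 38 genes were called, split pairs also arise without any tie to position, and no test was made. Control replicate 3 was the lowest of the 7 arrays for 18 of the 38 genes, more often than any other array, and mine drainage replicate 1 was the highest for 11. The like shares over all probesets were not counted. Over all probesets control replicate 3 was also the control that correlated least with the mine drainage arrays (0.962 to 0.965).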
